A study of Mus musculus with 2 samples.

Results

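The accessible regions described here were called by ATAC-seq in mouse hematopoietic stem cells carrying added H1C and were not called in cells carrying the empty vector. They were chosen by the calls of both libraries, as the regions of the H1C list on chromosomes 1 to 19 and X that shared not even 1 bp with any region of the control list. There were 1947 such regions of the 13001 H1C regions on these chromosomes (15.0%, exact Clopper-Pearson 95% interval 14.4 to 15.6), and 45161 regions in both lists together. Their number, strength and absence from control are therefore given as a description. In the other direction, 20965 of 31831 control regions (65.9%) had no overlapping H1C region.

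ATAC-seq uses a transposase that cuts open DNA and leaves sequencing adapters there. Both groups were sorted CD48-CD150+LSK cells, the surface phenotype of stem cells, taken from the bone marrow of wild-type C57BL/6J mice. The control cells had received pMSCV, an empty retroviral vector, and the H1C cells MSCV-H1C, which drives the linker histone H1C (gene name H1f2) from the same vector. The labels give no age, no time after transduction and no measure of how much H1C was made, and accessibility does not check it. The number of reads of each library is unknown. Each group was 1 library, so no difference described here has a replicate check, and no test between conditions was possible. All intervals cover counting error only, regions of 1 library are not replicates, and amplified fragments are not independent molecules.

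Linker histones bind the nucleosome where DNA enters and leaves it and favour compact chromatin. Promoters of active genes are kept open by bound factors and tend to be open in many cell types, whereas distal regions are open more selectively and include enhancers. A peak caller lists a position when its stack of reads, the pileup, exceeds the local background of the same library by more than a Poisson threshold. A site near that threshold may be listed in one library and not in another.

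Few members lay at a promoter, and those that did are where sequence can be shown. Of the 1901 members on chromosomes for which starts were tabled, 30 (1.58%, 1.07 to 2.25) overlapped the window from 250 bp before to 50 bp after a tabled start of a protein-coding gene, and 18 of these 30 had a control region within 1000 bp. The 5 shown, chosen after their values were seen, had the highest fold (summit pileup over local background) among those whose tabled start was also the outer end of the gene and whose region reached upstream of it. They are shown as examples of regions that lie on the start itself. This position follows in part from these conditions, and some promoter members of higher fold did not meet them. Each sequence is the 250 bases before the start, 5′ to 3′ on the strand of the gene (RefSeq, GRCm38.p6). Capitals mark letters of 4 motifs, read on either strand: GGGCGG (the GC box bound by Sp and KLF factors), CCAAT (the box bound by NF-Y), CCGGAA (an ETS core) and TATAAA (the TATA box).
Egln3, chr12:54203875-54204124, minus strand: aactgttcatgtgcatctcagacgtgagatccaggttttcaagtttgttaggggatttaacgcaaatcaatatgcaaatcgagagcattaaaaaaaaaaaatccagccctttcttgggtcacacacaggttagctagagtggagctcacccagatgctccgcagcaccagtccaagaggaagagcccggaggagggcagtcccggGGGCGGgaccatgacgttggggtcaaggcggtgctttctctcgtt
Plk1, chr7:122159185-122159434, plus strand: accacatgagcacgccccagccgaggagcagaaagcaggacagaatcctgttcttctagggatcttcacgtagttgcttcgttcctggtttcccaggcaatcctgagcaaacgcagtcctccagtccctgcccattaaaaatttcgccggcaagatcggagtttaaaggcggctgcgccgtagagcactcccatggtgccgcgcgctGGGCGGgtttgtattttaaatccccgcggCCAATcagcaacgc
Ybx3, chr6:131388451-131388700, minus strand: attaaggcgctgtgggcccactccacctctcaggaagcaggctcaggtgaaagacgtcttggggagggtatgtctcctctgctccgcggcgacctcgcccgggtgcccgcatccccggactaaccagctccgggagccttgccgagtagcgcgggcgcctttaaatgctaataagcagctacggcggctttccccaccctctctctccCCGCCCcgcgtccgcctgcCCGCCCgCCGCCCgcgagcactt
Npm3, chr19:45749566-45749815, minus strand: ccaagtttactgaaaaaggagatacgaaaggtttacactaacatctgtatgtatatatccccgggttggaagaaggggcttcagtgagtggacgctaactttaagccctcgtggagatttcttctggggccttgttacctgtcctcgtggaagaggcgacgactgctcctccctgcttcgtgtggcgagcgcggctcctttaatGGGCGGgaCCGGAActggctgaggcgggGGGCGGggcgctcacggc
Fkbp11, chr15:98728199-98728448, minus strand: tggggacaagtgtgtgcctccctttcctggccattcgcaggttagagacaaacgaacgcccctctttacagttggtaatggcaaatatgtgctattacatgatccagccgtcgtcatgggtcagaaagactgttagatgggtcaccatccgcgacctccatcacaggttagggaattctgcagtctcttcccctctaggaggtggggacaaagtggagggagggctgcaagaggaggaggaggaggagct

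The regions at these 5 starts had similar, low pileups and differed in how close control came. Egln3 encodes an oxygen-sensing prolyl hydroxylase. Its region (chromosome 12, 54203779 to 54204009) had a pileup of 24 and a fold of 4.63, with the summit 5 bp from the start and a control region 272 bp away. Plk1 encodes a kinase that drives entry into mitosis, and its region (chromosome 7, 122159276 to 122159502) had a pileup of 23, a fold of 4.07 and no control region nearer than 26.1 kb. The region at Ybx3, a gene for a cold-shock domain nucleic acid-binding protein, had a pileup of 21 and a control region at 257 bp. At Npm3, of the nucleoplasmin family of chaperones, the pileup was 23 and a control region lay at 136 bp. At Fkbp11, which encodes a prolyl isomerase of the secretory pathway, the pileup was 20 and the nearest control region lay 15.6 kb away. Of the other promoter members with a high fold, those at Zfp518b (fold 4.56, pileup 25, 58.1 kb from control), Ube2q2 (fold 4.48, pileup 25, 560 bp) and Samd11 (fold 4.07, pileup 21, 251 bp) did not meet these conditions. So at 3 of the 5 starts shown the control library had a region beside the start that the H1C region did not touch, and at the other 2 it had none nearby.

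In base composition, the upstream sequences reached by members had medians nearer to those of all promoters than to those of promoters with shared regions. Over the 28 upstream windows that members overlapped, the median was 56.4% G or C and 11 CpG, against 55.6% and 10 over all 21045 tabled windows and 62.4% and 19 over the 6548 windows that shared H1C regions overlapped. The GC box was present in 19 of 28 (67.9%, 95% interval 47.6 to 84.1), 68.5% of windows with shared regions and 43.1% of all windows. The CCAAT box was present in 4 of 28 (14.3%, 4.03 to 32.7), against 41.8% and 35.6%. The ETS core was present in 3 of 28 (10.7%, 2.27 to 28.2), against 29.1% and 15.1%, and the TATA box in 1 of 28, against 4.37% and 11.7%. Of 5 other motifs searched on both strands, AGATAA, bound by blood factors such as Gata2, was present in 1 of 28, and CACGTG (an E-box), TGACGTCA (the CRE), TGANTCA (AP-1) and the NRF1 motif in 0 of 28, which allows a share of up to 12.3%. Over all windows these 5 were present in 8.84%, 6.70%, 1.94%, 6.17% and 5.23%. With 28 windows the intervals are wide, and a match to these letters is not a bound site.

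Members lay mostly away from the ends of protein-coding genes. At gene ends, meaning up to 1000 bp from the first or last base of such a gene, were 137 members (7.04%, 95% interval 5.94 to 8.26). In the rest of gene bodies were 810 (41.6%, 39.4 to 43.8), and outside protein-coding genes were 1000 (51.4%, 49.1 to 53.6). By length, gene ends make up 2.98% of these chromosomes, the rest of gene bodies 37.5% and the space outside 59.5%. Of the 11054 H1C regions shared with control, 58.6% (57.7 to 59.5) lay at gene ends. Of the 20965 control-only regions, 17.9% (17.4 to 18.5) lay at gene ends, 43.1% in the rest of gene bodies and 39.0% outside. A gene-end share below that of shared regions was thus not particular to members, though theirs was the lower. Members were distributed more like the length of the chromosomes than like the shared regions. Their gene-end share was above that of length.

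The gene-end share of members was also lower than that of shared H1C regions of the same pileup. Among shared regions the gene-end share rose with pileup, so both sets were compared within pileup classes. Among regions with a pileup of up to 16, 12 of 219 members (5.48%, 2.86 to 9.38) and 26 of 139 shared regions (18.7%, 12.6 to 26.2) lay at gene ends. At pileups of 19 to 20 the shares were 5.74% (3.93 to 8.05) of 540 members and 26.5% (23.5 to 29.7) of 792 shared regions. At 26 to 30 they were 12.5% (6.16 to 21.8) of 80 members and 60.4% (58.2 to 62.5) of 2001 shared regions. The intervals, which cover counting error only, did not overlap in any of the 7 pileup classes. The sets were split by overlap with control, and equal H1C pileup does not even out that split. How much of the difference comes from it was not tested. Weighted to the pileups of the members, the gene-end share of shared regions was 30.6%, and weighted to their pileups and widths it was 29.1%.

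**Figure D1:**
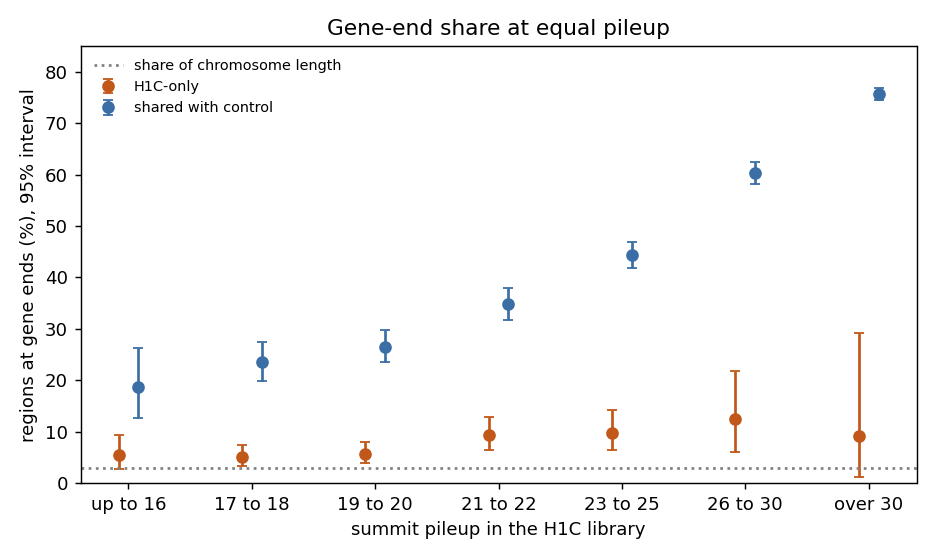
Share of regions at gene ends (vertical axis, percent, bars are exact 95% binomial intervals) by summit pileup in the H1C library (horizontal axis) for members (orange) and shared H1C regions (blue), with the share of chromosome length at gene ends dotted at 2.98%. Orange points stay between 5.11% and 12.5%, and blue points climb from 18.7% to 75.6%.

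Members at gene ends were less often at a gene's start than shared regions at gene ends. Leaving out chromosome 18, for which no starts were used, 64 of 135 gene-end members (47.4%, 38.8 to 56.2) came within 1000 bp of a tabled start, against 83.3% (82.3 to 84.2) of 6322 shared gene-end regions. Starts were tabled for 17274 of 21631 protein-coding genes, so both shares are low counts. The gene-end member with the joint highest pileup, 32, lay at Stat6, the gene of a transcription factor of interleukin-4 signalling (chromosome 10, 127643877 to 127644150, fold 3.93), with a control region of pileup 44 at 695 bp. The same pileup was seen at Grk2, a kinase of G protein-coupled receptors, 64 bp outside the gene (chromosome 19, 4306287 to 4306559, fold 3.13). A control region of pileup 42 lay at 1643 bp from it.

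Next by pileup among gene-end members were those at a zinc finger gene and a gene of cell death. Zfp260, the zinc finger gene, had a member of pileup 30 (chromosome 7, 30094636 to 30094876) with a control region of pileup 41 at 140 bp. Gsdmd, the gene of the pore-forming protein gasdermin D, had a member of pileup 29 (chromosome 15, 75862194 to 75862419, fold 4.32), 4460 bp from the nearest control region. At Stat6, Grk2 and Zfp260, then, the nearest control region had a higher pileup than the member and lay within 1643 bp. At Gsdmd the control pileup was also higher, 33, but farther away.

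In gene bodies, members lay more often than control-only regions in genes with no called gene end. The host gene had a gene-end region in both lists for 238 of 810 members (29.4%, 26.3 to 32.7), in control alone for 151 (18.6%, 16.0 to 21.5) and in neither list for 421 (52.0%, 48.5 to 55.5). For the 2477 shared H1C regions in gene bodies these shares were 32.3%, 20.1% and 47.2% (45.2 to 49.1), and for the 9029 control-only regions in gene bodies 37.6%, 20.3% and 41.8% (40.7 to 42.8). The interval of members for neither list lay above that of control-only regions and overlapped that of shared regions. Members lay in long genes: the 830 protein-coding genes with a member inside had a median length of 87.3 kb, against 17.3 kb for all protein-coding genes. A longer gene offers more positions for a region, and length was not corrected for.

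A single gene held more than 3 members. Rbfox1, a splicing regulator gene of 1528 kb on chromosome 16, held 5, against 3 control regions. Among the 13 genes with at least 3 members was Runx1, a transcription factor gene needed for blood stem cells, with 3 members, 3 shared H1C regions and 12 control regions. Sfi1, a centrosome protein gene on chromosome 11, held 3 members, 15 shared H1C regions and 16 control regions. The Sfi1 members, with pileups of 34, 34 and 31, were 3 of the 5 gene-body members with the highest pileup. These genes were chosen after their counts were seen.

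Outside protein-coding genes, members lay farther from genes than other regions. Their median distance to the nearest protein-coding gene was 36.0 kb (quartiles 11.4 and 121 kb), against 23.0 kb (8.22 and 65.9 kb) for shared H1C regions and 24.5 kb (8.85 and 70.3 kb) for control-only regions outside genes. A gene lay within 100 kb of 71.5% of members (68.6 to 74.3), 81.7% of shared regions (80.0 to 83.3) and 81.5% of control-only regions (80.6 to 82.3). The member with the highest fold in the list, 7.56, was of this kind, at chromosome 4, 34935748 to 34935989, 13.1 kb from Mob3b. It had a pileup of 40 over a background no higher than 1.004 times that of the genome, and the nearest control region was 48.7 kb away. The next folds fell off at once, to 5.55 near Rab12 and 5.37 near Cyp2b19, and 11 regions tied at rank 10 with a fold of 5.00. In gene bodies the highest fold, 5.37, was in Atg10, a gene of autophagy, 44.3 kb from control. At gene ends it was 5.00, at Snf8, which encodes a subunit of the ESCRT-II sorting complex, where the pileup was 27 and control lay 11.2 kb away.

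Most members were far from any control region rather than at the edge of one. The median distance to the nearest control region was 15.2 kb (quartiles 4.47 and 47.1 kb), and the longest was 1797 kb, for a region on chromosome 14 (81712771 to 81713070, pileup 21). A control region lay within 200 bp of 85 members (4.37%, 3.50 to 5.37), within 1000 bp of 245 (12.6%, 11.1 to 14.1), within 10 kb of 780 (40.1%, 37.9 to 42.3) and within 100 kb of 1664 (85.5%). For scale, the 20965 control-only regions lay a median of 10.6 kb from the nearest other control region, with 2.90% of them (2.68 to 3.14) within 200 bp, 13.0% (12.5 to 13.4) within 1000 bp and 48.3% (47.6 to 48.9) within 10 kb. No control-only region lay nearer than 126 bp to another control region of its list, whereas members came as near as 3 bp. The shares within 200 bp therefore cannot be compared. The shares within 1000 bp include those nearer pairs, so the overlap of their intervals does not show an equal frequency. Within 10 kb, which includes them too, a neighbour was less frequent for members. After the region on chromosome 14, the farthest were 1594 kb from control on chromosome 11, in the direction of Pom121l12 (pileup 25, fold 4.81), and 1492 kb on X, in the body of Slitrk4, a gene of synapse formation (pileup 19).

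Gene-end members were the exception. Their median distance to a control region was 695 bp, against 14.7 kb in gene bodies and 19.8 kb outside genes. Of the 85 members within 200 bp of a control region, 28 (32.9%, 23.1 to 44.0) lay at gene ends, and of the 283 members over 100 kb away 2 did (0.707%, 0.0857 to 2.53). The control neighbour within 1000 bp had itself an overlapping H1C region in 75 of 245 cases (30.6%, 24.9 to 36.8). That share was 30.8% for the neighbours of members over 10 kb away. Of the 245, 14 lay between control regions on both sides within 1000 bp.

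**Figure D2:**
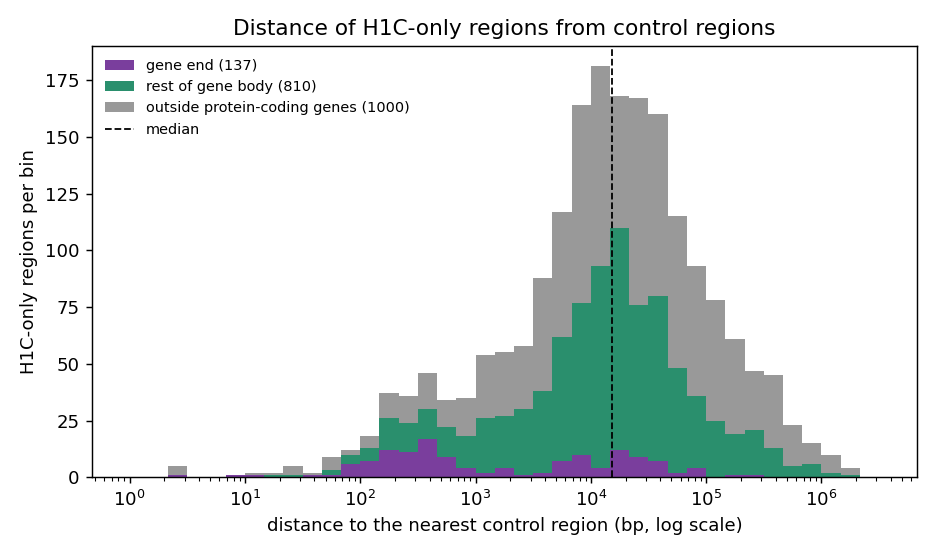
Number of members (vertical axis) by distance to the nearest control region in bp (horizontal axis, log scale), stacked by gene end (137), rest of gene body (810) and outside protein-coding genes (1000), with the median of 15.2 kb dashed. Of the 137 gene-end members, 28 lie up to 200 bp and 43 from 200 bp to 1 kb from control, and the other members peak near the median.

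The rule turns on 1 bp, and few regions were close to that limit. The 5 members nearest to control each lay 3 bp from a control region and had pileups of 16 to 24. On the other side, the shared H1C regions with the least overlap shared 2 bp with control and had pileups of 21 and 26. Within 50 bp of a control region were 19 members, and 27 shared H1C regions overlapped control by under 50 bp. Of all shared H1C regions 98.1% overlapped control over at least 50% of their own width. The nearest member at a gene lay at Gdi2 (chromosome 13, 3538461 to 3538760), with a pileup of 24 beside a control region of pileup 88.

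Members were weak and narrow, and their strength varied little. Their median fold over local background was 3.52 (quartiles 3.28 and 3.89), against 4.59 (3.83 and 5.81) in shared H1C regions. The median −log10 p was 7.14 and the median −log10 q 4.08, against 12.5 and 9.07. Control-only regions, from the other library, also had lower medians than shared H1C regions: fold 3.99, −log10 p 8.79 and −log10 q 6.02. The −log10 q was under 2 for 26 members (1.34%), under 5 for 1440 (74.0%, 71.9 to 75.9) and under 10 for 1940 (99.6%). Among shared H1C regions these shares were 0.136%, 19.8% and 54.8%. Few members thus lay under 2, though a larger share than of shared regions. Hardly any members reached 10, which most shared regions did not reach either.

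Pileups ran from 14 to 111 with a median of 19 (quartiles 18 and 22), against 30 (23 and 40) in shared regions. Control-only regions had a median pileup of 22 in the control library. The commonest value was 18, with 291 members, and 22 members exceeded 30. Members made up 61.2% of H1C regions with a pileup of up to 16, 40.5% at 19 to 20, 14.6% at 23 to 25 and 0.420% above 30. The rule used these calls, so nothing is read from the shares.

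**Figure D3:**
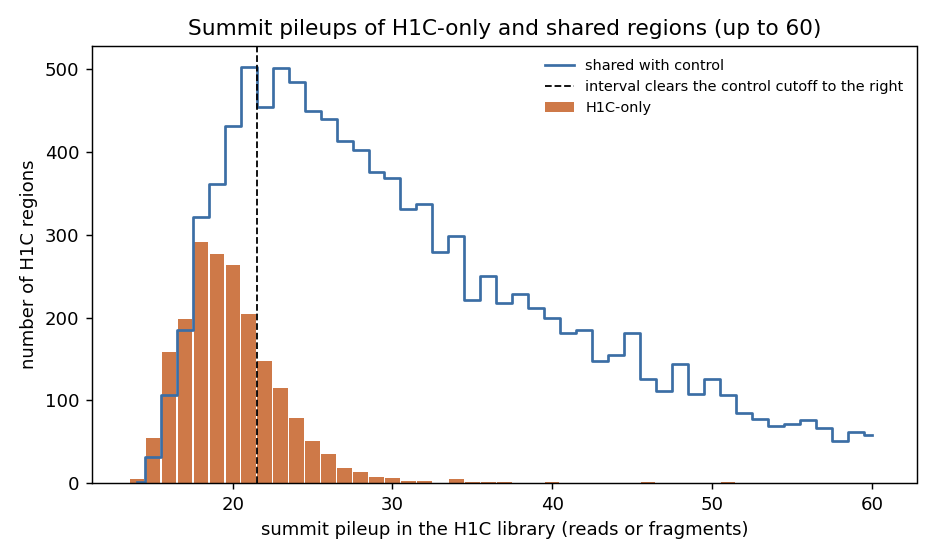
Number of H1C regions (vertical axis) by summit pileup (horizontal axis, up to 60) for members (orange bars) and shared regions (blue line), with a dashed line left of a pileup of 22. Members pile up between 16 and 24, whereas shared regions extend far to the right.

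Members were also narrow. The median width was 242 bp (quartiles 209 and 288), against 345 bp in shared regions, and 331 members (17.0%, 15.4 to 18.7) had the smallest width in the list, 200 bp, against 3.99% of shared regions. The summit, given as its distance from the start of the region, lay at a median of 122 bp. It fell in the middle 50% of the region in 80.7% of members (78.9 to 82.4) and 87.5% of shared regions (86.9 to 88.1). The local background was no higher than the genome background for 991 members (50.9%, 48.7 to 53.1), against 17.4% of shared regions. Control-only regions had a median width of 279 bp, and 8.46% had the smallest width. Their summit fell in the middle 50% in 86.2%, and 32.5% had a local background at the genome background of control. A typical member was thus a narrow stack of reads on an otherwise flat stretch.

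How many members lay within counting error of the control threshold was then computed. At the genome background a summit needed a pileup of 12 in control and 14 in H1C, as solved from the lowest −log10 p of each list. Whether either list was called more loosely was not tested. The genome background was 3.99 in control and 4.40 in H1C, and H1C pileups were divided by the ratio, 1.10. On that scale the median member had a pileup of 17.2, or 1.43 times the control threshold. For 495 members (25.4%, 23.5 to 27.4), those with a pileup of at least 22, the lower exact Poisson 95% bound of the scaled pileup was above 12. The same held for 82.4% of shared H1C regions. Members were selected for having passed the H1C threshold, which favours pileups that came out high, and stacks narrower than 200 bp were in neither list.

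This count moved by over 1.5 times with the depth scale, the width of the interval and the choice of background. With H1C scaled by 0.869, the ratio of the median local backgrounds at shared summits, it was 1530. With no scaling it was 962. With an interval that leaves out 1 in 1000 it was 49, and with the threshold set by each region's own local background 293. The region near Mob3b had a scaled pileup of 36.3 (95% interval 25.9 to 49.4), 3.02 times the control threshold (2.16 to 4.11).

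Signs that a region may be noise of the calling were counted as 5 properties. A −log10 q under 2 was seen in 26 members (1.34%, 0.874 to 1.95) and 0.136% of shared H1C regions, and a width of at most 209 bp, the lowest 10% of H1C regions, in 504 (25.9%, 24.0 to 27.9) and 7.26% of shared regions. A local background of at least 5 times the genome background was seen in 2 (0.103%, 0.0124 to 0.371), a lower share than the 0.299% (0.206 to 0.419) of shared regions, with overlapping intervals. A control region within 200 bp was seen in 85. A pileup within counting error of the control threshold was seen in 1452 (74.6%, 72.6 to 76.5) and 17.6% of shared regions. At least 1 sign was present in 1561 members (80.2%, 78.3 to 81.9) and none in 386 (19.8%, 18.1 to 21.7). Most of these members had the sign for counting error. That sign and the sign for a near control region were measured against control, which the rule also used. No such total was made for shared regions, which overlap control by the rule, so it has no share to be set against. Without the sign for counting error, 595 members (30.6%, 28.5 to 32.7) had at least 1. With the scale of 0.869, 864 members had at least 1 sign. Whether members with a sign are noise was not tested, since that needs a second library of each kind.

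Of the 495 members with the higher pileups, gene ends held 46 (9.29%, 6.88 to 12.2) and the space outside genes 258 (52.1%, 47.6 to 56.6). Over all members, which include these, the shares were 7.04% and 51.4%.

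The largest pileups belonged to regions on a raised background. The highest, 111, lay outside genes on chromosome 14 (19419265 to 19419566), with a fold of 2.92, a local background 8.50 times that of the genome and a control region of pileup 193 only 278 bp away. The second, 83, lay in Tmem267 on chromosome 13 (119600238 to 119600457), with a fold of 2.60 and a local background 7.12 times that of the genome. Another, of 51, lay 3073 bp from the same gene. Members of pileup 46 lay on chromosome 16, with the nearest gene, Olfr161, 359 kb away, and on chromosome 4, 6.78 kb from Zfp978, at backgrounds 3.39 and 3.78 times that of the genome. H2-DMa, a gene of antigen loading in the major histocompatibility complex, held a member of pileup 34 (chromosome 17, 34127579 to 34127783) at a background 1.62 times that of the genome. High pileup and high fold thus picked different members, and the region near Mob3b was the single one among the top 5 outside genes by pileup with a flat background.

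From chromosome to chromosome, the rate of members broadly followed that of the other H1C regions. There were 0.740 members per Mb over all 20 chromosomes, and the rate ran from 0.246 per Mb on X (exact Poisson 95% interval 0.177 to 0.332) and 0.467 on chromosome 12 (0.352 to 0.606) to 1.11 on chromosome 11 (0.928 to 1.31). The overall rate lay inside the interval of 10 of the 20 chromosomes. As a share of the H1C regions of each chromosome the spread was smaller, from 11.8% on chromosome 12 to a highest value on chromosome 10 with a 95% interval of 16.2 to 22.1, and 19 of 20 intervals held the overall 15.0%. On X the share was 15.8% (11.7 to 20.8), so the low rate there was shared with the other H1C regions, of which X had 1.31 per Mb against 4.20 overall.

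**Figure D4:**
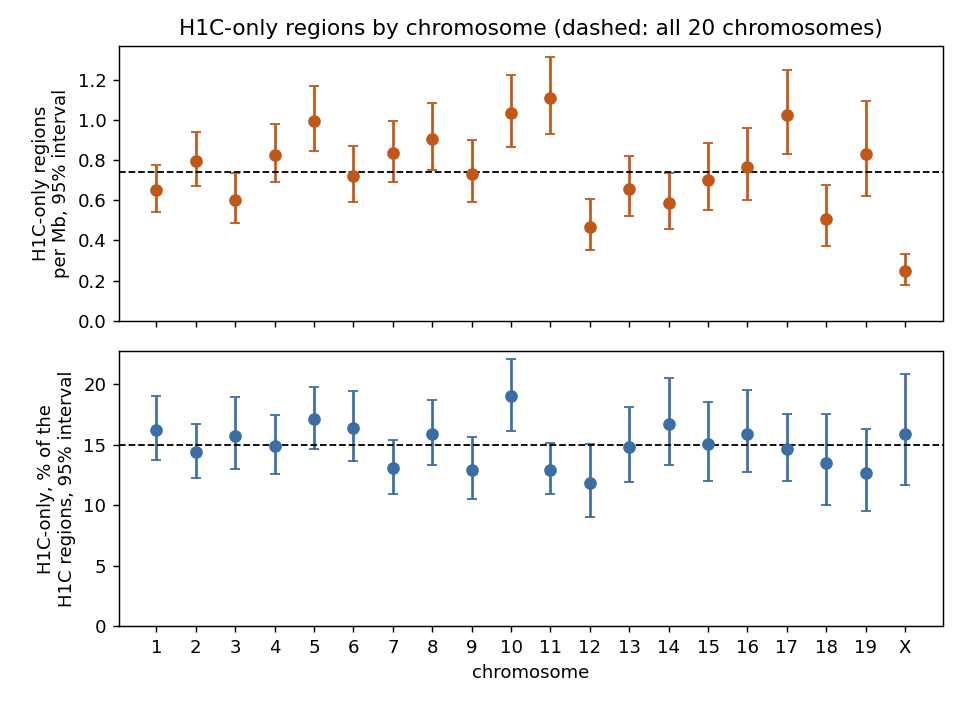
Members per Mb (top, with exact Poisson 95% intervals) and members as a percent of the H1C regions (bottom, with exact binomial 95% intervals) for chromosomes 1 to 19 and X, with the value over all chromosomes dashed. Rates differ between chromosomes and are lowest on X, whereas the percent stays near 15.0%, with chromosome 10 above.

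The last 10% of chromosome length, looked at after the counts along chromosomes were seen, held 406 members (20.9%, 19.1 to 22.7), against 15.0% (14.4 to 15.7) of shared and 16.1% (15.6 to 16.6) of control-only regions. Its share was higher among members than among shared regions on 16 of 20 chromosomes, and higher than among control-only regions on 16. Away from gene ends the shares were 20.8% of members (18.9 to 22.7), 18.2% of shared regions (17.1 to 19.4) and 16.8% of control-only regions (16.3 to 17.4), and 19.5% of shared regions once weighted to the pileups of members. The weighted share lay inside the interval of members, and the share of control-only regions lay below it.

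Most members had no other member close by, and some 1 Mb bins held several. The nearest other member was a median of 253 kb away, 85 members (4.37%, 3.50 to 5.37) had another within 10 kb and 18 within 1000 bp. Of 2641 bins of 1 Mb, 1523 held no member, 630 held 1 and 42 held at least 5. The densest bin, from 13 to 14 Mb on chromosome 17, held 9 members near Smok2b, Tcp10c, Tcte2 and Unc93a, beside 13 shared H1C regions and 24 control regions. Bins with 7 members lay at 68 Mb on chromosome 10 (Arid5b, Rhobtb1), at 126 Mb on chromosome 10 (Ctdsp2, Lrig3), at 87 Mb on chromosome 11, at 172 Mb on chromosome 2, at 139 Mb on chromosome 4 and at 20 Mb on chromosome 8, the last among defensin genes. The bin at 68 Mb on chromosome 10 held 1 shared H1C region and 22 control regions.

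Members near genes of blood stem cells had the low pileups typical of the list. Over all 21631 protein-coding genes, 2733 (12.6%) had a member inside the gene or within 50 kb. Of 25 stem cell regulators 8 did (32.0%, 14.9 to 53.5), 18 had a shared H1C region and 23 a control region in the same span. Control regions were also in the span of 11 of 15 non-blood markers, so spans of this size do not tell cell types apart. Over all protein-coding genes 64.6% had a shared H1C region and 79.2% a control region in the span, and neither gene length nor the density of other regions was corrected for. The 8 genes with a member were Runx1, Kit, Procr, Mecom, Tal1, Hlf, Lyl1 and Hoxa9. Only 2 of the 25 (8.00%) held a member inside the gene, against 3.84% of all protein-coding genes. For Tal1, Lyl1, Procr and Hoxa9 the member lay 44.3, 41.1, 23.2 and 11.4 kb away, in the body of another gene. For Hlf it lay 34.1 kb away, outside protein-coding genes. Near Kit, the stem cell factor receptor, the member lay 3.50 kb outside the gene with a pileup of 20 and a fold of 3.76, and the nearest control region was 10.6 kb from it. Inside Mecom, a transcription factor gene of stem cell maintenance, it had a pileup of 18 and lay 60.4 kb from control. The 3 members inside Runx1 had pileups of 21, 20 and 20, and the strongest lay 163 bp from a control region. All 10 were below the pileup of 22 that cleared counting error.

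Markers of more mature blood cells also had members. They were near 3 of 14 myeloid genes, 3 of 13 erythroid and megakaryocyte genes and 2 of 15 lymphoid genes, too few for the shares to be told from the 12.6% of all genes by their intervals. Itgam, an integrin gene of myeloid cells, held a member of pileup 25 and fold 4.56, 19.4 kb from control, the strongest of any listed gene. Fcgr3, an Fc receptor gene, had one 4.98 kb away with a pileup of 20, and Pax5, the B-cell factor, had one inside the gene (pileup 19) and one 3.08 kb outside (pileup 21). Vwf and Cd9 share the same member, of pileup 19, between them. Of 15 non-blood markers 0 had a member (0%, 0 to 21.8), and this interval also held the 12.6% of all genes.

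Among genes of crosslink repair and linker histones a single one had a member. Of 23 Fanconi anemia and crosslink repair genes 1 had a member within 50 kb, Palb2, and that member was the one at the start of Plk1, 26.3 kb from Palb2. Of the list of 8 made up of linker histone genes and Dek, 0 had one (0%, 0 to 36.9), so the H1f2 gene itself had no member. Both intervals held the 12.6% of all protein-coding genes, so neither list can be told from other genes. Olfactory receptor genes had a member at 28 of 1110 (2.52%, 1.68 to 3.63), vomeronasal receptor genes at 17 of 355 (4.79%, 2.81 to 7.56) and Zfp zinc finger genes at 56 of 397 (14.1%, 10.8 to 17.9). Shared H1C regions were in the same span of 7.03%, 7.61% and 76.6% of these genes. The spans of neighbouring genes overlap, so a single member can count for several genes of a cluster.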

How the data were processed

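Each library had its own list of accessible regions, 32005 in control and 13156 in H1C, deposited by the authors as called regions with no read totals. The submitters' processing notes name MACS2, Picard, featureCounts, Bowtie2 2.2.9 and Trim Galore 0.4.4, with mm10 as the build. How duplicates were handled and whether reads were shifted is not given in the sources used here, and both bear on summits and pileups. In the deposited lists the fold is a ratio of summit pileup to local background (1 added to each), the −log10 p and −log10 q values come from the authors' peak caller, and the score equals −log10 q multiplied by 10 and cut to a whole number for at least 99.96% of regions. All describe regions within a list.

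Pileup and local background were solved from fold and −log10 p (whole within a relative tolerance of 0.0001 for 32005 control and 13155 H1C regions). Regions overlapped at 1 bp or more. Genes came from RefSeq, GRCm38.p6, as spans without exons, so exons, introns and UTRs were not separated. Chromosome lengths ran to the last gene or region, in all 2631 Mb. Shares have exact Clopper-Pearson 95% intervals. Scripts were tested on simulated data. The members and lists were chosen with earlier results of these data known. Regions named were the 10 of highest fold, the 5 of highest pileup in each gene class, the 3 nearest to and 3 farthest from control, the 5 of highest fold at promoters, the 5 densest bins (7 are named, since 6 tied) and listed genes, up to 3 by fold. One region that this rule names is not reported here. The sequence set was narrowed to gene starts at the outer end of the gene. Python 3.11.15, numpy 2.4.6, pandas 2.3.3 and scipy 1.17.1 were used.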

Additional observations from a re-analysis of the deposited data

How the results depend on the processing

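No paired analysis was possible because there was only 1 library per group, and no alternative tests the spread between libraries. Over 10 results and 53 alternatives, 29 values kept inside the 95% interval, the quartiles or, for counts and the ratio between chromosomes, 1.5 times, and 24 did not. The cause was not tested. The number of members was 507 at −log10 q of at least 5 and 4489 when a 50% reciprocal overlap was needed to count as shared. Their share of H1C regions was 14.3% and 13.1% when control within 200 or 1000 bp counted as shared, 34.5% with reciprocal overlap, 5.41% at −log10 q of at least 5 and 20.3% with control at −log10 q of at least 5. Their gene-end share was 5.85% and 3.88% without those within 200 or 1000 bp of control, 35.9% with reciprocal overlap, 3.95% and 11.5% with windows of 500 and 2500 bp and 10.9% with all genes. The weighted gene-end share of shared regions was 33.6% by −log10 p and 29.1% by pileup and width. Outside all genes lay 40.1%. Members with another nearby were 1.97% at −log10 q of at least 5, 0.924% within 1 kb and 28.2% within 100 kb. Members above the control threshold were 1530 (local background scale), 962 (no scaling), 49 (an interval leaving out 1 in 1000) and 293 (own background). Members with a sign of noise were 864 on the local background scale, an alternative chosen after seeing the data, as were 3 others for that count.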

Other observations

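Regions on other sequences were left out by the rule. On chromosome Y, 2 of 11 H1C regions had no overlapping control region, against 4 of 12 control regions with no H1C region. On unplaced, unlocalised or patch sequences these were 38 of 144 H1C regions (26.4%, 95% interval 19.4 to 34.4) and 56 of 162 control regions (34.6%, 27.3 to 42.4). The 38 had a median pileup of 26 and a median fold of 3.70, with a highest fold of 5.69. Their share among H1C regions was above the 15.0% on chromosomes 1 to 19 and X.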
